A study of Mus musculus with 7 samples.

Results

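The nuclear-encoded subunits of the mitochondrial respiratory chain and of ATP synthase were followed across stomach-type tissue grown from mouse embryonic stem (ES) cells, 4 adult organs and the embryonic stomach. The members were the genes whose symbols begin with Ndufa, Ndufb, Ndufc, Ndufs, Ndufv, Sdh, Uqcr, Cox4 to Cox8 or Atp5, leaving out the assembly factors whose symbols begin with Ndufaf or Sdhaf. The rule reads symbols alone and uses no measured value, though the set was taken up with earlier results of these data known. The reference gene table held such symbols for 88 protein-coding genes and 19 pseudogenes. A named probe was found for 83 of the protein-coding genes, among 17047 named genes on the array, and for none of the pseudogenes. The 5 protein-coding genes without a named probe were Ndufa4l2, Ndufa11, Ndufb1, Ndufb4b and Ndufb4c. The 83 genes comprised 35 of complex I, 4 of complex II, 8 of complex III, 19 of complex IV and 17 of complex V. Complex IV here takes in Ndufa4, first assigned to complex I and later found to be a subunit of cytochrome c oxidase.

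Each of the 7 samples was a group of its own, measured on 1 one-colour array. The day 46 culture was ES-cell-derived stomach tissue that had been kept for 42 days in medium with EGF (50 ng/mL), FGF10 (100 ng/mL), Wnt3a, Noggin and R-spondin1 (250 ng/mL) and then for 4 days with Shh (100 ng/mL) and Bmp4 (10 ng/mL). The day 42 culture was the same kind of tissue at the end of the first period, and whether its factors stayed in the medium afterwards is not said in the labels. Adult esophagus, lung, intestine and stomach were freshly isolated from outbred ICR mice, and the stomach primordium was taken from ICR embryos at embryonic day 9.5 (E9.5). The labels used here give neither the ages of the adults, nor the number of animals behind a sample, nor the ES cell line. With 1 array per group there was no test and no replicate error. Differences are therefore given as sizes, counts and medians beside the same quantity over all genes, and the number of arrays limits their precision. The spread available for scale was technical: the median standard deviation (SD) between spots of one probe was 0.065 to 0.097 on the log2 scale, and the SD between different probes of one gene is given for each comparison.

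Of the 17047 genes, 77.8% to 90.5% were well above background on an array by the scanner software's own flag. The 4 adult organs shared 1 slide, while both cultures and the E9.5 stomach were run on separate slides. The scanner software was also of another version for the cultures than for the other 5 arrays. Slide and sample cannot be told apart except among the adult organs. The labelled organs carried their defining markers: summed over a list and given as log2, lung epithelial markers stood at 10.8 in lung, enterocyte markers at 11.8 in intestine, parietal cell markers at 10.6 in adult stomach and squamous epithelial markers at 10.3 in esophagus. The squamous list did not set esophagus apart from adult stomach, where it summed to 10.2. Lung epithelial markers were also present on the esophagus array, with a sum of 6.33 against 3.04 in adult stomach. All 5 were at least 2-fold higher in esophagus than in adult stomach, against 14% of all genes. In the cultures the 4 surface mucous cell markers summed to 7.81 at day 46 and 4.48 at day 42, against 11.3 in adult stomach. The 9 parietal cell markers summed to 4.36 at day 46 and 3.92 at day 42, against 10.6 in adult stomach and 3.80 in lung. In both cultures Car2 and Kcnq1 were the highest of these 9. Atp4b was at -3.87 at day 46 and -4.84 at day 42, against -4.07 in intestine and 9.94 in adult stomach. Atp4a was at -5.17 and -4.76, against 7.55 in adult stomach, and was not well above background in intestine. Whether the cultures held parietal cells was not tested.

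The respiratory chain passes electrons from NADH through complex I (NADH dehydrogenase) or from succinate through complex II (succinate dehydrogenase) to complex III (the cytochrome bc1 complex), cytochrome c and complex IV (cytochrome c oxidase), where oxygen is reduced. The proton gradient built by complexes I, III and IV drives complex V, the ATP synthase. The acid-secreting parietal cells of the stomach, like heart muscle and slow skeletal muscle, are packed with mitochondria. Most subunits are made in all tissues, but several small subunits of cytochrome c oxidase exist as a common and a tissue-restricted isoform, and Cox6a2, Cox7a1 and Cox8b are the heart and skeletal muscle isoforms in mice.

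The promoters of 4 genes are printed as examples. Cox6a1 and Sdhd are subunits made in all tissues, and Cox8b and Cox7a1 are muscle isoforms. These 4 promoters do not stand for all genes of either kind. They are the 250 bases upstream of the annotated start, 5′ to 3′ on the gene's strand, from RefSeq's GRCm38.p6 table. Capitals mark matches to the motifs of nuclear respiratory factor 1 (NRF1, the letters GCGC and TGCGC with any 1 base between) and of GABP, also called NRF2 (CCGGAAG), on either strand. Cox6a1 (common isoform, complex IV) lies at chr5:115348959-115349208 on the minus strand, Sdhd (membrane anchor of complex II) at chr9:50603850-50604099 on the minus strand, Cox8b at chr7:140900447-140900696 on the minus strand and Cox7a1 at chr7:30183921-30184170 on the plus strand.
Cox6a1: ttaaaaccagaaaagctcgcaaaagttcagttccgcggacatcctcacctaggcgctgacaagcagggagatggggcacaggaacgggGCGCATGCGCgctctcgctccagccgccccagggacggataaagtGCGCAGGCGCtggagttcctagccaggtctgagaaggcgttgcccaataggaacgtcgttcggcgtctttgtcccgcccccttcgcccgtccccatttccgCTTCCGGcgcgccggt
Sdhd: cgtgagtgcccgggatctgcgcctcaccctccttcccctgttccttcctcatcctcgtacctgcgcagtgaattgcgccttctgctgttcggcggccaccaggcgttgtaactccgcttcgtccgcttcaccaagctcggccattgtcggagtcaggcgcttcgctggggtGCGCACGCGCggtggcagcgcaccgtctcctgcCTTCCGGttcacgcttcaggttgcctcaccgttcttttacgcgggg
Cox8b: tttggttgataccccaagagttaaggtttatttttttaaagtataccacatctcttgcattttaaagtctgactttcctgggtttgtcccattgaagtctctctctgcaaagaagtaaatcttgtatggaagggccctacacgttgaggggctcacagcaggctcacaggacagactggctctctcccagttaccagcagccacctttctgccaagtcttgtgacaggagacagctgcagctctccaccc
Cox7a1: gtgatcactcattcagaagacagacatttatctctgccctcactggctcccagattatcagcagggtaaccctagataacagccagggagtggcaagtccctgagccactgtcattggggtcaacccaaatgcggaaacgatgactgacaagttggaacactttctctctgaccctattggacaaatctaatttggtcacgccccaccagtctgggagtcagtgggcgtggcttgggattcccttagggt

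The Cox6a1 window held NRF1 matches beginning 162 and 117 bases before the start and a GABP match 16 bases before it. Sdhd had an NRF1 match 79 bases and a GABP match 46 bases before its start. The windows of the muscle isoforms Cox8b and Cox7a1 held neither motif. They were also poorer in G and C: over 300 bases, from 250 before to 50 after the start, G and C made up 48.3% of the Cox8b window and 53% of the Cox7a1 window, with 2 and 7 CpG dinucleotides. The same windows of Cox6a1 and Sdhd held 63% and 62% G and C, with 32 and 29 CpG dinucleotides. Cox7a1 was near the medians of all windows, 52.7% and 7, while Cox6a1 and Sdhd were above the members' median of 19 CpG. Lacking a motif was not particular to muscle isoforms. Among members that were not restricted isoforms, 48 had no NRF1 match and 16 had a match. For GABP, 47 had none and 17 had a match.

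Over these 300-base windows, 68 of the 83 members had a promoter in the table and were compared with all 27025 genes in it, counting a match on either strand. The NRF1 motif was present in 16 members (23.5%) and in 5.19% of all promoters. GABP's motif was found in 17 members (25%), against 9.93% of all. AANATGGCG, the motif of YY1, occurred in 10 members (14.7%), against 2.76% of all promoters. AAGGTCA, the motif of the estrogen-related receptors (ERR), occurred in 8 members (11.8%), against 5.38% of all. At least 1 of the 4 motifs stood in 38 members (55.9%) and in 20.5% of all promoters, and the restricted isoforms Cox7a1, Cox8b and Cox6b2 held none of them. The members' windows were also richer in G and C than those of all genes (median 57.7% against 52.7%) and in CpG (19 against 7), and the shares were not adjusted for this. A match is a run of letters and not a shown binding site.

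Nearly all members were measurable everywhere: 80 of 83 were well above background on all 7 arrays, as were 69.2% of all named genes. The exceptions were restricted isoforms of complex IV. Cox4i2 was not well above background in adult stomach, Cox7b2 was so only in the day 46 culture, and Cox8c on no array. The last gene enters no comparison. Levels are log2 of the background-corrected signal minus the array's 75th percentile, so that 1 unit is a 2-fold change of signal. Probes differ in brightness, so levels are compared between arrays for the same gene and never between genes. The median level of the 83 members was 4.15 in day 46 culture, 4.83 in day 42 culture, 5.90 in esophagus, 4.23 in lung, 6.09 in intestine, 6.29 in adult stomach and 5.18 in E9.5 stomach. Over all named genes the median stayed between -1.22 and -0.86. The members as a set were thus highest in adult stomach, intestine and esophagus and lowest in the day 46 culture and lung. In bulk RNA, fewer cells with many mitochondria and less of each RNA per cell cannot be told apart.

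The arrays were also counted by how often each held a member's highest or lowest level. Among the 80 members above background everywhere, 49 (61.3%) had their highest level in adult stomach, against 9.64% of all 11798 genes above background everywhere. Intestine was the highest for 24 members (30%, against 18% of all genes) and esophagus for 4 (5%, against 8.20%). The day 42 culture was highest for 2 (2.5%, against 14.1%) and lung for 1 (1.25%, against 11.5%). No member was highest in the day 46 culture, against 8.55% of all genes, or in E9.5 stomach, against 30.1%. Lung was the lowest array for 40 members (50%, against 16.2% of all genes) and the day 46 culture for 34 (42.5%, against 9.58%). E9.5 stomach was lowest for 3 (3.75%, against 24.3%), adult stomach for 2 (2.5%, against 6.98%) and the day 42 culture for 1 (1.25%, against 11.7%). The signals left room at the top of the scale: the brightest member of each array had an intensity of 142102 to 351896, no member lay within 2-fold of the array's brightest probe, and no spot was saturated.

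**Figure D1:**
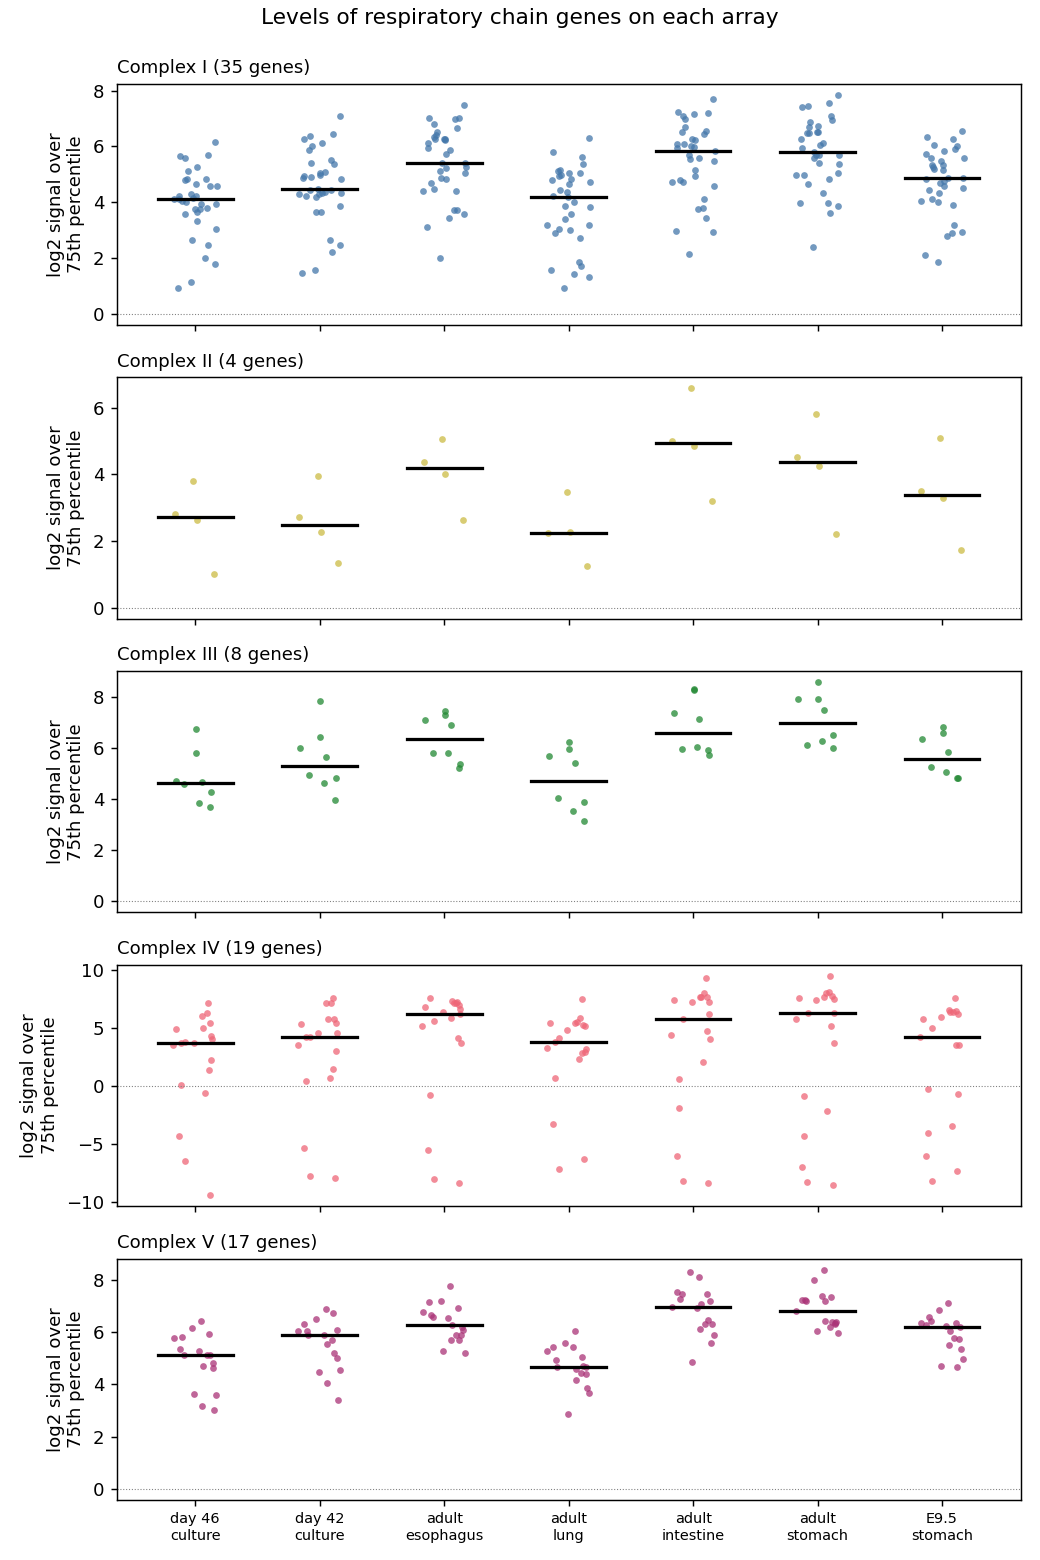
Level of every member on each of the 7 arrays, 1 panel per complex, as log2 signal over the array's 75th percentile. Each point is 1 gene and the bar is the median over the members of the complex. In every complex the medians of adult stomach and intestine lie above those of both cultures and lung, and the 4 genes of complex II are highest in intestine.

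**Figure D2:**
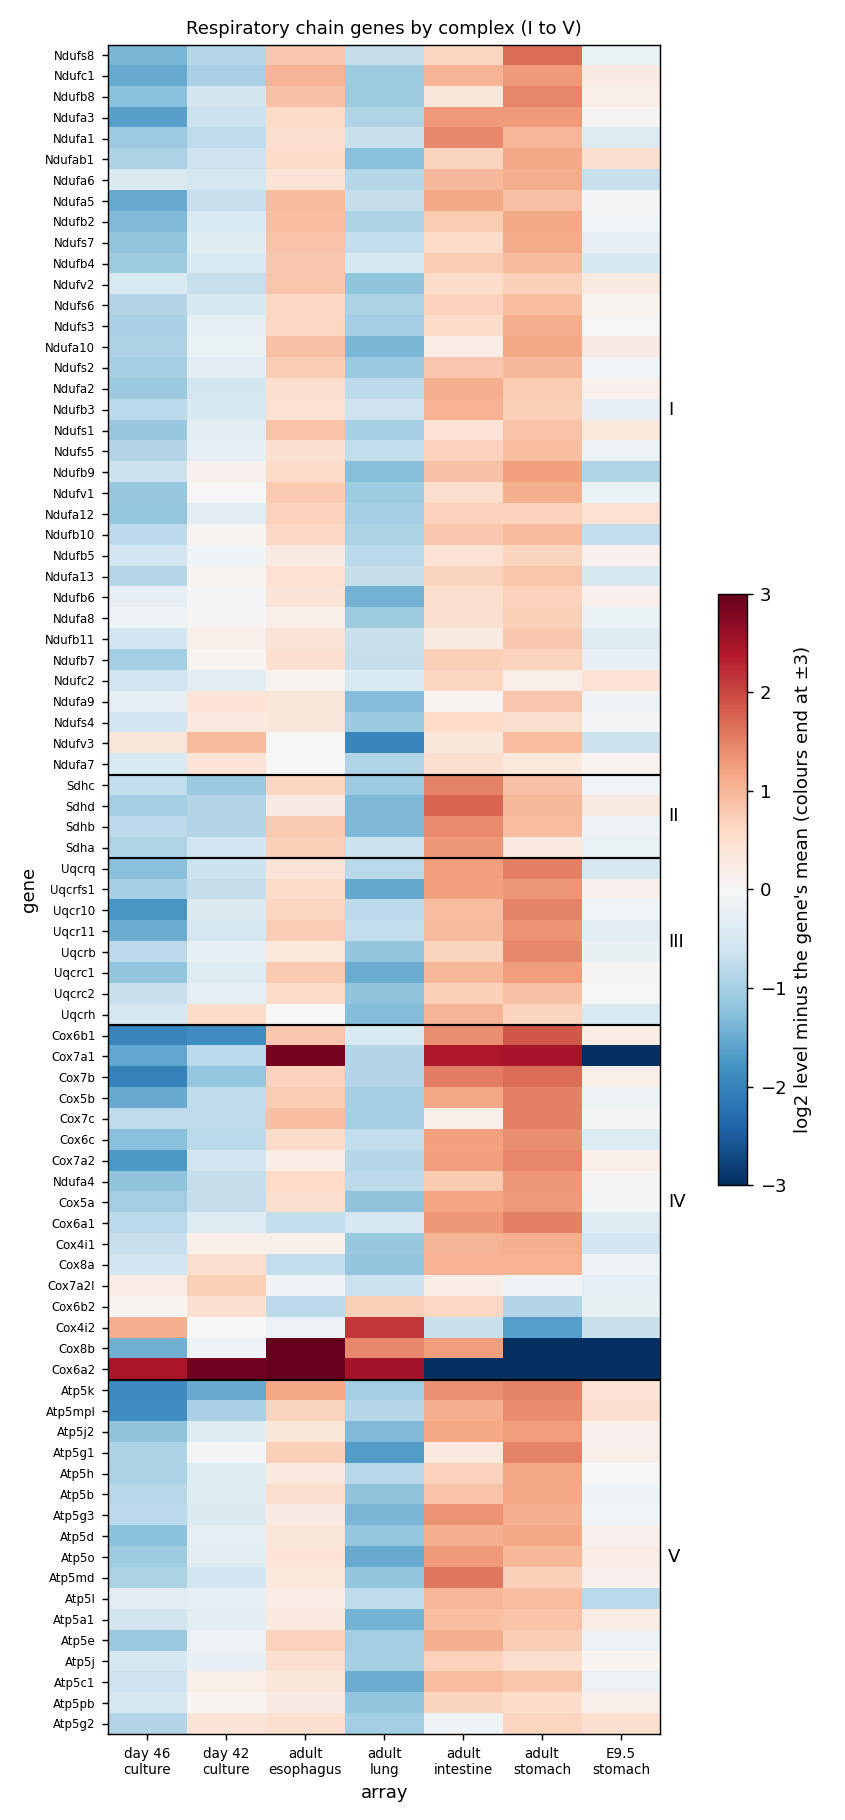
Level of each member on each array after subtraction of that member's own mean over the 7 arrays (log2 units), with members grouped by complex. Adult stomach and intestine are above the mean for most members, lung and the day 46 culture are below it, and a few isoforms of complex IV run the other way.

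Complex I, which oxidises NADH, had a median level over its 35 members of 4.10 in day 46 culture, 4.48 in day 42 culture, 5.42 in esophagus, 4.19 in lung, 5.82 in intestine, 5.81 in adult stomach and 4.88 in E9.5 stomach. Ndufv1, the flavoprotein where NADH binds, was at 3.94 in day 46 culture, 5.07 in day 42 culture, 5.86 in esophagus, 4.02 in lung, 5.59 in intestine, 6.14 in adult stomach and 4.88 in E9.5 stomach. The largest subunit, the iron-sulfur protein Ndufs1, was at 3.06 in day 46 culture, 3.88 in day 42 culture, 5.04 in esophagus, 3.20 in lung, 4.59 in intestine, 5.06 in adult stomach and 4.51 in E9.5 stomach. Both were lowest in the day 46 culture and lung and highest in adult stomach, with esophagus next and, for Ndufs1, almost level with it. Ndufs8, an iron-sulfur subunit at the base of the hydrophilic arm, spanned more, at 0.94 in day 46 culture, 1.45 in day 42 culture, 3.10 in esophagus, 1.58 in lung, 2.95 in intestine, 3.99 in adult stomach and 2.12 in E9.5 stomach. Accessory subunits varied more among themselves. Ndufb9 was at 5.60 in day 46 culture, 6.36 in day 42 culture, 6.81 in esophagus, 4.94 in lung, 7.11 in intestine, 7.45 in adult stomach and 5.33 in E9.5 stomach. Its lowest level was in lung, with E9.5 stomach next. Ndufc2 was the flattest member of the whole set, with a range over the arrays of 1.23: it was at 4.59 in day 46 culture, 4.83 in day 42 culture, 5.26 in esophagus, 4.71 in lung, 5.82 in intestine, 5.36 in adult stomach and 5.60 in E9.5 stomach. Ndufa7 ranged over 1.40, at 5.27 in day 46 culture, 6.14 in day 42 culture, 5.74 in esophagus, 4.83 in lung, 6.23 in intestine, 6.05 in adult stomach and 5.84 in E9.5 stomach.

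Complex II takes electrons from succinate and is also an enzyme of the tricarboxylic acid (TCA) cycle. All 4 of its genes were highest in intestine. That was not particular to complex II, since intestine was highest for 24 of 80 members, some of them in each other complex. The medians of complexes I and V were also highest in intestine, at 5.82 and 6.97, against 5.81 and 6.81 in adult stomach. The flavoprotein Sdha was at 1.004 in day 46 culture, 1.34 in day 42 culture, 2.63 in esophagus, 1.26 in lung, 3.21 in intestine, 2.21 in adult stomach and 1.72 in E9.5 stomach. The iron-sulfur subunit Sdhb was at 2.81 in day 46 culture, 2.71 in day 42 culture, 4.37 in esophagus, 2.24 in lung, 5.01 in intestine, 4.51 in adult stomach and 3.49 in E9.5 stomach. The membrane anchor Sdhc was at 2.63 in day 46 culture, 2.25 in day 42 culture, 4.002 in esophagus, 2.27 in lung, 4.85 in intestine, 4.24 in adult stomach and 3.28 in E9.5 stomach. Sdhd, whose promoter is printed above, was at 3.80 in day 46 culture, 3.94 in day 42 culture, 5.06 in esophagus, 3.48 in lung, 6.58 in intestine, 5.80 in adult stomach and 5.09 in E9.5 stomach. By their brightest probes all 4 were between 0.50 and 0.99 higher in intestine than in adult stomach, a comparison within 1 slide, where the SD between probes of one gene was 0.53. The largest difference was that of Sdha, whose other probe was at 2.22 in intestine and 2.04 in adult stomach. The 4 genes differed little between the cultures, with a median log2 difference of -0.01 for day 46 over day 42.

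Complex III had a median level over its 8 members of 4.61 in day 46 culture, 5.30 in day 42 culture, 6.35 in esophagus, 4.72 in lung, 6.57 in intestine, 6.99 in adult stomach and 5.55 in E9.5 stomach. The Rieske iron-sulfur protein Uqcrfs1 was at 3.69 in day 46 culture, 3.95 in day 42 culture, 5.23 in esophagus, 3.15 in lung, 5.90 in intestine, 6.01 in adult stomach and 4.82 in E9.5 stomach. The core protein Uqcrc1 was at 3.84 in day 46 culture, 4.63 in day 42 culture, 5.81 in esophagus, 3.53 in lung, 6.03 in intestine, 6.27 in adult stomach and 5.06 in E9.5 stomach. Both were lowest in lung and highest in adult stomach. Uqcr10, a small subunit, was instead lowest in the day 46 culture, at 4.70 in day 46 culture, 6.0 in day 42 culture, 7.08 in esophagus, 5.67 in lung, 7.38 in intestine, 7.93 in adult stomach and 6.35 in E9.5 stomach. The hinge protein Uqcrh, which helps cytochrome c bind, was highest in intestine, and its level in the day 42 culture came close to that in adult stomach, at 6.73 in day 46 culture, 7.82 in day 42 culture, 7.28 in esophagus, 5.96 in lung, 8.28 in intestine, 7.93 in adult stomach and 6.81 in E9.5 stomach.

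Among the common subunits of complex IV, Cox4i1, which takes part in regulation of the enzyme by ATP, was at 6.32 in day 46 culture, 7.16 in day 42 culture, 7.16 in esophagus, 5.88 in lung, 8.04 in intestine, 8.10 in adult stomach and 6.44 in E9.5 stomach. Cox5a was at 5.46 in day 46 culture, 5.78 in day 42 culture, 7.004 in esophagus, 5.28 in lung, 7.67 in intestine, 7.77 in adult stomach and 6.46 in E9.5 stomach. Each was lowest in lung and highest in adult stomach, with intestine close behind. Cox6b1, which faces the intermembrane space near the cytochrome c site, was very low in both cultures, at 1.37 in day 46 culture, 1.49 in day 42 culture, 4.15 in esophagus, 2.88 in lung, 4.75 in intestine, 5.22 in adult stomach and 3.58 in E9.5 stomach. Cox7b was at 3.73 in day 46 culture, 4.60 in day 42 culture, 6.44 in esophagus, 4.89 in lung, 7.29 in intestine, 7.44 in adult stomach and 5.93 in E9.5 stomach, again lowest in the cultures. Ndufa4 was at 3.79 in day 46 culture, 4.28 in day 42 culture, 5.59 in esophagus, 4.19 in lung, 5.77 in intestine, 6.29 in adult stomach and 5.01 in E9.5 stomach. Cox7a2l, which helps join complexes III and IV into supercomplexes, was the exception, with its highest level in the day 42 culture: it was at 4.08 in day 46 culture, 4.58 in day 42 culture, 3.75 in esophagus, 3.21 in lung, 4.08 in intestine, 3.73 in adult stomach and 3.59 in E9.5 stomach.

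Complex V had a median over its 17 members of 5.13 in day 46 culture, 5.88 in day 42 culture, 6.26 in esophagus, 4.66 in lung, 6.97 in intestine, 6.81 in adult stomach and 6.19 in E9.5 stomach. Atp5a1, the alpha subunit of the catalytic head, was at 5.82 in day 46 culture, 6.04 in day 42 culture, 6.65 in esophagus, 4.95 in lung, 7.26 in intestine, 7.21 in adult stomach and 6.59 in E9.5 stomach. Atp5b, the catalytic beta subunit, was at 6.41 in day 46 culture, 6.90 in day 42 culture, 7.78 in esophagus, 6.03 in lung, 8.10 in intestine, 8.39 in adult stomach and 7.13 in E9.5 stomach. The 2 head subunits ran together, lowest in lung and highest in the intestine and adult stomach arrays. Atp5g1, Atp5g2 and Atp5g3 encode the same mature c subunit of the proton-driven ring from different loci, and they did not run together. Atp5g1 was at 3.61 in day 46 culture, 4.48 in day 42 culture, 5.27 in esophagus, 2.88 in lung, 4.84 in intestine, 6.05 in adult stomach and 4.71 in E9.5 stomach. Atp5g2 was at 4.81 in day 46 culture, 6.08 in day 42 culture, 6.19 in esophagus, 4.65 in lung, 5.60 in intestine, 6.35 in adult stomach and 6.19 in E9.5 stomach. Atp5g3 was at 6.15 in day 46 culture, 6.51 in day 42 culture, 7.18 in esophagus, 5.58 in lung, 8.29 in intestine, 8.01 in adult stomach and 6.86 in E9.5 stomach. Atp5g1 was highest in adult stomach and Atp5g3 in intestine, while Atp5g2 was nearly level among adult stomach, esophagus, E9.5 stomach and the day 42 culture. Atp5k, the e subunit involved in pairing of the enzyme, was low in the cultures, at 3.01 in day 46 culture, 3.40 in day 42 culture, 6.09 in esophagus, 3.88 in lung, 6.29 in intestine, 6.40 in adult stomach and 5.33 in E9.5 stomach.

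**Figure D3:**
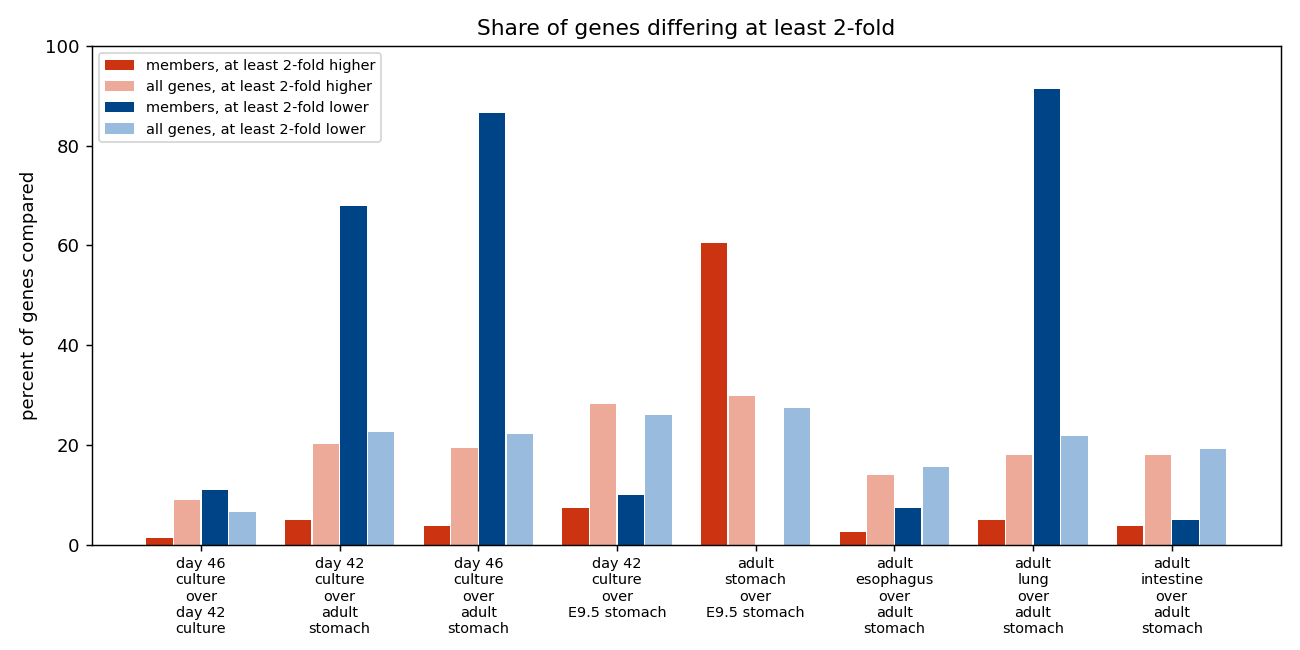
Percent of members and of all genes compared that differed at least 2-fold between 2 arrays, in each of 8 comparisons, with higher shares in red and lower shares in blue. The members' lower share reaches 67.9% for the day 42 culture, 86.6% for the day 46 culture and 91.4% for lung, each over adult stomach, and their higher share reaches 60.5% for adult stomach over E9.5 stomach.

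**Figure D4:**
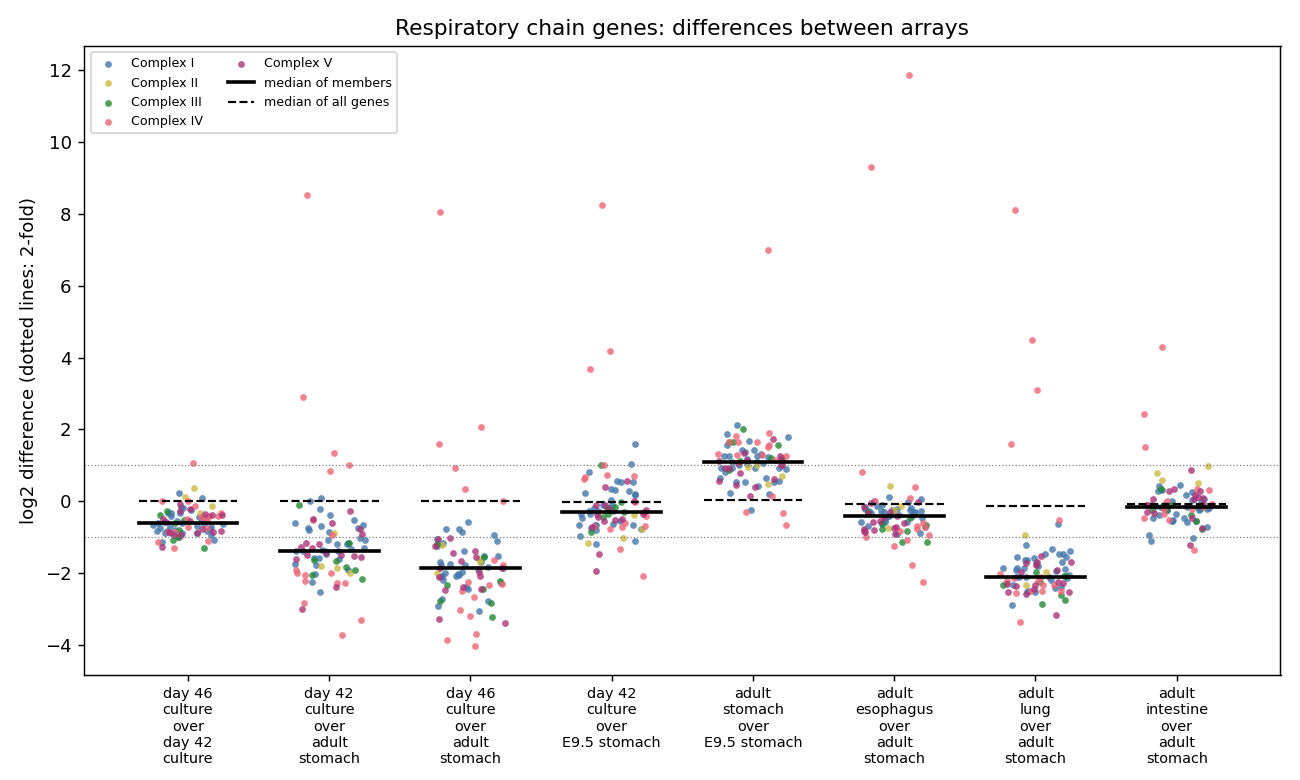
Log2 difference of every member in each of 8 comparisons, 1 point per gene and coloured by complex, with bars at the medians. The members gather below 0 for the day 42 culture, the day 46 culture and lung over adult stomach and above 0 for adult stomach over E9.5 stomach, and the points far above the rest are isoforms of complex IV.

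The day 46 culture differed from the day 42 culture in 4 further days with Shh and Bmp4, so that medium and time cannot be told apart. Most members were slightly lower at day 46. Of 82 members compared, 75 had a negative difference, 9 were at least 2-fold lower and 1 was at least 2-fold higher, while 6.47% of all genes were at least 2-fold lower and 9% at least 2-fold higher. The median log2 difference of the members was -0.59, against 0 over all genes, and the SD between probes of one gene was 0.51. By complex the median was -0.66 for complex I, -0.01 for complex II, -0.70 for complex III, -0.49 for complex IV and -0.59 for complex V. Cox4i2, the isoform of Cox4 known from lung and from low oxygen, was higher at day 46 by 1.06 (2.08-fold). Next came Sdhc at 0.38 and Ndufv2 at 0.24, both within the spread between probes. The lowest differences belonged to the muscle isoform Cox8b at -1.30, Uqcr10 at -1.30 and Atp5g2 at -1.27, and another probe for Atp5g2 gave -0.74. Ndufv1 at -1.14, Cox7a2 at -1.13, Cox8a at -1.11, Uqcrh at -1.09, Ndufb7 at -1.09 and Uqcr11 at -1.0001 made up the rest of the 9. In the same pair of arrays, the 10 cardiac muscle markers summed to 6.96 at day 46 and 7.57 at day 42, with 4 of 10 at least 2-fold lower, and the 6 hepatocyte markers to 7.12 and 7.81, with 3 at least 2-fold lower. Their part in these differences was not tested. The count rests on the scaling: 40 members were at least 2-fold lower with arrays centred on their medians and 1 with quantile normalization, with 0 higher under either, and quantile normalization gave a median relative to all genes of -0.32.

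Against adult stomach, the day 42 culture was at least 2-fold lower in 55 of 81 members (67.9%) and at least 2-fold higher in 4, while 22.6% of all genes were at least 2-fold lower and 20.2% at least 2-fold higher. The median log2 difference was -1.38, against 0 over all genes, with an SD between probes of 0.87. Every complex had a negative median: -1.20 for complex I with 23 members at least 2-fold lower, -1.83 for complex II with 3, -1.76 for complex III with 7, -1.99 for complex IV with 10 and -1.31 for complex V with 12. Cox6b1 at -3.73, Cox7a1 at -3.30 and Atp5k at -3.01 were the lowest, followed by Cox7b at -2.84 and Ndufs8 at -2.54. The 4 members at least 2-fold higher were all restricted isoforms of complex IV. Cox6a2 was higher by 8.53 (368-fold), Cox8b by 2.90 (7.48-fold), Cox6b2, the testis isoform, by 1.35 (2.55-fold), and Cox4i2 by at least 1.01 (2.01-fold), since its signal in adult stomach was not well above background. The parietal cell markers stood at 3.92 in the day 42 culture and 10.6 in adult stomach and the smooth muscle markers at 6.62 and 10.0. The hepatocyte markers summed to 7.81 in the day 42 culture and 5.40 in adult stomach, with 4 of 6 at least 2-fold higher in the culture and a median difference of 8.56. The part of these cell types in the members' difference was not tested. With arrays centred on their medians, 35 members were at least 2-fold lower.

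The day 46 culture stood still further below adult stomach. At least 2-fold lower were 71 of 82 members (86.6%), against 22.1% of all genes, and 3 were at least 2-fold higher, against 19.4% of all genes. The median difference was -1.87, with 0 over all genes and an SD between probes of 0.85. It was -1.84 for complex I, -1.65 for complex II, -2.38 for complex III, -2.29 for complex IV and -1.86 for complex V, and all members of complexes II, III and V were at least 2-fold lower. Cox7a1 at -4.03, Cox6b1 at -3.85 and Cox7b at -3.71 were the lowest. Higher in the day 46 culture were Cox6a2 by 8.05 (265-fold), Cox4i2 by at least 2.06 (4.18-fold) and Cox8b by 1.60 (3.03-fold). Between -1 and 1 lay the complex I subunits Ndufb6, Ndufa8, Ndufa7, Ndufc2 and Ndufv3, the supercomplex factor Cox7a2l and the testis isoform Cox6b2, while Cox7b2 was dim in adult stomach and its bound left no difference. The comparisons of both cultures share the adult stomach array, so their likeness is no separate support. In the day 46 culture the parietal cell markers summed to 4.36 and the smooth muscle markers to 6.67, against 10.6 and 10.0 in adult stomach. Hepatocyte markers summed to 7.12 in the day 46 culture and 5.40 in adult stomach, with 4 of 6 at least 2-fold higher in the culture. Their part was not tested.

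Set against the E9.5 stomach, the day 42 culture showed no common shift of the size seen against the adult organ. Of 81 members, 8 were at least 2-fold lower, against 25.9% of all genes, and 6 were at least 2-fold higher, against 28.1% of all genes. The median was -0.31, with -0.03 over all genes and an SD between probes of 0.89. Higher in the culture were Cox6a2 by 8.23 (301-fold), Cox8b by 4.19 (18.2-fold), Cox7a1 by 3.69 (12.9-fold), Ndufv3 by 1.58, Ndufb9 by 1.03 and Uqcrh by 1.00. All 3 heart and skeletal muscle isoforms were among these 6. Lower were Cox6b1 at -2.09, Atp5k at -1.94, Atp5mpl at -1.47, Cox7b at -1.33, Ndufc1 at -1.20, Sdhd at -1.16, Ndufab1 at -1.12 and Sdhc at -1.03. Ndufab1 is the mitochondrial acyl carrier protein, which is also a subunit of complex I. The cardiac muscle markers summed to 7.57 in the day 42 culture and 4.28 in E9.5 stomach, with 9 of 10 at least 2-fold higher in the culture, and the smooth muscle markers to 6.62 and 5.09. All 6 hepatocyte markers were at least 2-fold higher in the culture, with sums of 7.81 and -3.84. The part of these cell types was not tested. With the normexp background correction the members' median relative to all genes, -0.28, became -0.12.

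Adult stomach was higher than E9.5 stomach for most of the chain. At least 2-fold higher were 49 of 81 members (60.5%), against 29.8% of all genes, and none was at least 2-fold lower, against 27.3% of all genes. The median difference was 1.10, with 0.03 over all genes and an SD between probes of 0.63, and 77 members had a positive difference. It was 1.04 for complex I, 0.84 for complex II, 1.39 for complex III, 1.31 for complex IV and 1.01 for complex V. Cox7a1 led with 6.99 (127-fold), then Ndufb9 with 2.12 and Uqcrq, a small subunit of complex III, with 2.01. The lowest were Cox6b2 at -0.66, Cox4i2 at -0.33, where adult stomach gives only a bound, and Cox6a2 at -0.29. All 9 parietal cell markers were at least 2-fold higher in the adult organ, summing to 10.6 there and 1.63 in E9.5 stomach, and the smooth muscle markers to 10.0 and 5.09, while erythroid markers were 0.134 and 7.98. The part of these cell types in the difference was not tested. With arrays centred on their medians, which shifted the all-gene median by -0.57, 15 members were at least 2-fold higher and 1 lower.

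Among adult organs on the shared slide, esophagus was slightly lower than stomach for most members and stood apart for isoforms of complex IV. A negative difference was found for 71 of 81 members and for 53.5% of all genes. At least 2-fold lower in esophagus were 6 of 81 members, against 15.6% of all genes, and 2 were at least 2-fold higher, against 14% of all genes. The median was -0.42, with -0.07 over all genes and an SD between probes of 0.48. The 2 higher members were Cox6a2 by 11.88 (3766-fold) and Cox8b by 9.30 (630-fold). The lower members were Cox6a1 at -2.26, Cox8a at -1.77, Cox7a2 at -1.25 (its other probe at -1.29), Uqcrq at -1.13, Uqcrb at -1.12 and Cox6b1 at -1.07. Esophagus thus had less signal for the common Cox6a1, Cox8a and Cox7a2 and more for Cox6a2 and Cox8b. All 10 skeletal muscle markers were at least 2-fold higher in esophagus, with a sum of 11.95, against 4.37 in stomach. Mouse esophagus has a wall of striated muscle, and the part of that muscle in the isoform values was not tested. At least 2-fold lower were 10 members with arrays centred on their medians and 3 with quantile normalization, and the median relative to all genes, -0.36, became -0.22 with quantile normalization and -0.16 with the normexp background correction.

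Lung was the adult organ farthest below stomach. At least 2-fold lower were 74 of 81 members (91.4%), against 21.8% of all genes, and 4 were at least 2-fold higher, against 18% of all genes. The median difference was -2.10, with -0.14 over all genes and an SD between probes of 0.56. All members of complexes III and V, 34 of 35 of complex I, 3 of 4 of complex II and 12 of complex IV were at least 2-fold lower. Cox7a1 at -3.37, Atp5g1 at -3.17 and Ndufv3 at -2.90 were the lowest, though other probes for Ndufv3 gave -0.89 and -0.41. Ndufc2 at -0.65, Sdha at -0.95 and Cox7a2l at -0.53 were the 3 members that differed less than 2-fold. Higher in lung were Cox6a2 by 8.10 (274-fold), Cox8b by 4.48 (22.4-fold), Cox4i2 by at least 3.11 (8.62-fold) and Cox6b2 by 1.58. Cardiac muscle markers summed to 6.59 in lung and 6.13 in stomach, with 6 of the 9 compared at least 2-fold higher in lung, and parietal cell markers to 3.80 and 10.6. Their part was not tested. With quantile normalization the median relative to all genes, -1.96, became -1.23. Myocardial cells in the walls of pulmonary veins are known from mice.

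Intestine was close to stomach over the set. Only 4 of 81 members were at least 2-fold lower, against 19.2% of all genes, and 3 were at least 2-fold higher, against 17.9% of all genes. The median was -0.16, with -0.08 over all genes and an SD between probes of 0.53. Lower in intestine were Cox7c at -1.36, Atp5g1 at -1.21, Ndufb8 at -1.11 and Ndufs8 at -1.03. Higher were Cox8b by 4.29 (19.6-fold), Cox6a2 by 2.43 (5.39-fold) and Cox6b2 by 1.502. Complex II had the highest median, 0.69, while complexes I, III, IV and V had -0.21, -0.25, -0.11 and 0.05. Parietal cell markers summed to 2.87 in intestine and 10.6 in stomach, and enterocyte markers to 11.8 and 4.89. Their part in the members' levels was not tested.

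The 3 heart and skeletal muscle isoforms of cytochrome c oxidase had the widest ranges of all members, 11.9 for Cox6a2, 10.6 for Cox8b and 7.37 for Cox7a1, against a median of 2.38 over all members. Cox6a2 was at 3.74 in day 46 culture, 4.21 in day 42 culture, 7.57 in esophagus, 3.79 in lung, -1.88 in intestine, -4.31 in adult stomach and -4.02 in E9.5 stomach. It was high in esophagus, intermediate in both cultures and lung and low in intestine and both stomachs. Its common counterpart Cox6a1 was at 7.19 in day 46 culture, 7.60 in day 42 culture, 7.26 in esophagus, 7.49 in lung, 9.30 in intestine, 9.51 in adult stomach and 7.61 in E9.5 stomach, with adult stomach and intestine above the other 5 arrays.

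Cox8b was at -0.56 in day 46 culture, 0.74 in day 42 culture, 7.14 in esophagus, 2.32 in lung, 2.13 in intestine, -2.16 in adult stomach and -3.44 in E9.5 stomach. Its order was led by esophagus, with lung and intestine next and close to each other. The common Cox8a was at 6.06 in day 46 culture, 7.17 in day 42 culture, 5.91 in esophagus, 5.46 in lung, 7.70 in intestine, 7.69 in adult stomach and 6.54 in E9.5 stomach. Esophagus, the highest array for Cox8b, was among the lowest for Cox8a, after lung only.

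Cox7a1 followed another order, at 2.28 in day 46 culture, 3.01 in day 42 culture, 6.69 in esophagus, 2.94 in lung, 6.24 in intestine, 6.31 in adult stomach and -0.68 in E9.5 stomach. The 3 adult gut organs stood close to each other and far above E9.5 stomach, with the cultures and lung between. Cox7a2, its common counterpart, was at 4.33 in day 46 culture, 5.46 in day 42 culture, 6.27 in esophagus, 5.19 in lung, 7.30 in intestine, 7.52 in adult stomach and 6.25 in E9.5 stomach. Cox4i2 was at -4.25 in day 46 culture, -5.31 in day 42 culture, -5.50 in esophagus, -3.21 in lung, -5.99 in intestine, -6.98 in adult stomach and -5.98 in E9.5 stomach, of which the adult stomach value was not well above background, and it was highest in lung. Cox6b2 ranged over only 1.58, at 0.08 in day 46 culture, 0.50 in day 42 culture, -0.76 in esophagus, 0.73 in lung, 0.65 in intestine, -0.85 in adult stomach and -0.19 in E9.5 stomach.

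The restricted isoform was set against its common counterpart by subtracting the 2 log2 differences of the same pair of arrays, which cancels the brightness of the probes. For Cox6a2 minus Cox6a1 this gave 10.4 for each culture over adult stomach, 14.1 for esophagus, 10.1 for lung and 2.64 for intestine over adult stomach, 8.25 for the day 42 culture over E9.5 stomach and -2.19 for adult over E9.5 stomach. Between the cultures, day 46 over day 42, it was -0.07, so that both isoforms differed alike. For Cox8b minus Cox8a it was 3.23 for the day 46 culture, 3.42 for the day 42 culture, 11.1 for esophagus, 6.71 for lung and 4.28 for intestine over adult stomach. Cox7a1 minus Cox7a2 was largest for adult over E9.5 stomach at 5.72 and for the day 42 culture over E9.5 stomach at 4.48, and it was 1.63 for esophagus, -1.03 for lung and -1.24 for the day 42 culture over adult stomach. The 3 muscle isoforms therefore did not shift together in these samples.

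The muscle markers beside these isoforms were as follows. Skeletal muscle markers summed to 4.67 in day 46 culture, 4.85 in day 42 culture, 11.95 in esophagus, 5.25 in lung, 3.80 in intestine, 4.37 in adult stomach and 3.49 in E9.5 stomach, with 8 to 10 of 10 above background on each array. Cardiac muscle markers summed to 6.96, 7.57, 7.98, 6.59, 5.75, 6.13 and 4.28 on the same arrays in that order, again with 8 to 10 of 10 above background. Smooth muscle markers summed to 6.67, 6.62, 8.81, 7.01, 9.94, 10.0 and 5.09, with 6 of 6 above background on each array. Like Cox7a1, the smooth muscle sum was highest in the 3 adult gut organs and lowest in E9.5 stomach. Against adult stomach, 8 of 10 cardiac markers were at least 2-fold higher in each culture, with a median difference of 5.35 at day 46 and 7.15 at day 42, while the skeletal markers had medians of -0.14 and -0.35. Esophagus, the highest array for Cox6a2 and Cox8b, also had the highest sum for the skeletal and cardiac muscle lists. By the median over the list, however, cardiac markers were higher in the day 46 culture (3.04) and the day 42 culture (3.87) than in esophagus (1.96). Intestine was higher than adult stomach for Cox6a2 and Cox8b, while the skeletal and cardiac sums were lower there. Gene by gene these lists were mixed. Of 10 skeletal markers, 4 were at least 2-fold higher in intestine and 4 lower. Of 9 cardiac markers compared, 2 were higher and 1 lower, beside 17.9% and 19.2% of all genes. The part of muscle cells in these values was not tested.

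**Figure D5:**
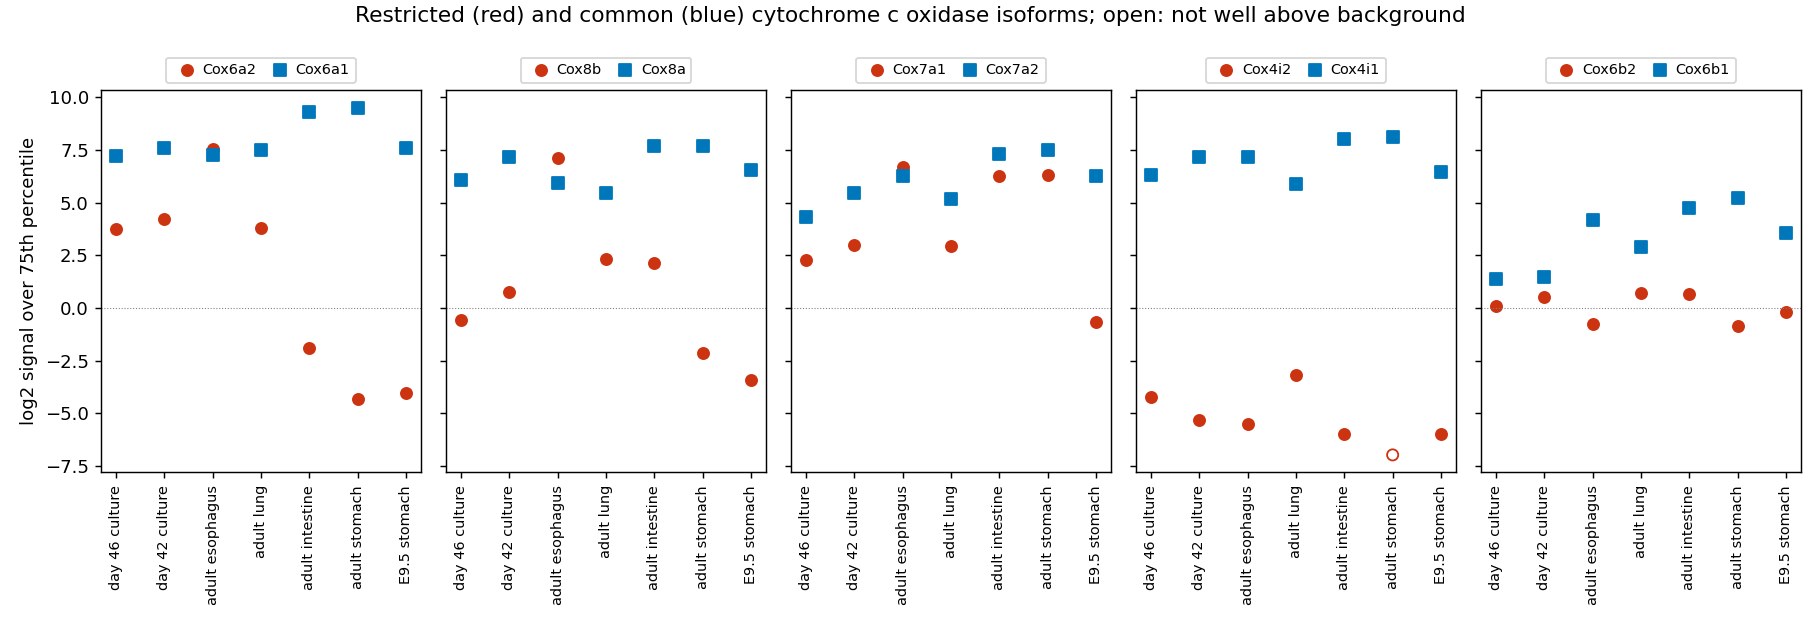
Levels of restricted (red circles) and common (blue squares) isoforms of cytochrome c oxidase subunits on the 7 arrays, as log2 signal over the array's 75th percentile, with an open symbol where the signal was not well above background. Cox6a2 and Cox8b peak in esophagus and Cox7a1 is far lower in E9.5 stomach than in the adult gut, and the heights of different genes in a panel are not comparable.

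Other mitochondrial genes were followed as lists that hold none of the members. Of all genes, 22.1% were at least 2-fold lower in the day 46 culture over adult stomach. The share was 22.6% for the day 42 culture and 21.8% for lung. In the TCA cycle list (13 genes), at least 2-fold lower were 12 in the day 46 culture, 9 in the day 42 culture and all 13 in lung over adult stomach, with medians of -1.74, -1.23 and -1.96 and none at least 2-fold higher. Mdh2, the malate dehydrogenase of the cycle, was at 6.34 in day 46 culture, 6.64 in day 42 culture, 7.66 in esophagus, 5.35 in lung, 9.00 in intestine, 7.69 in adult stomach and 6.87 in E9.5 stomach. It was highest in intestine. Of the 13 genes, 3 were at least 2-fold higher in intestine than in adult stomach, a share near the 17.9% of all genes.

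Mitochondrial fatty acid oxidation (16 genes) had 11 genes at least 2-fold lower in the day 46 culture, 9 in the day 42 culture and 12 in lung over adult stomach. Adult stomach was at least 2-fold higher than E9.5 stomach for 14 of 16, against 29.8% of all genes, with a median of 1.62. The day 42 culture was at least 2-fold higher than E9.5 stomach for 5 of 16, a share near the 28.1% of all genes, with a median of 0.56. Cpt1a, which admits long-chain fatty acids into mitochondria, was at 1.01 in day 46 culture, 1.23 in day 42 culture, 1.78 in esophagus, 2.35 in lung, 2.87 in intestine, 3.15 in adult stomach and -3.45 in E9.5 stomach.

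Cytochrome c and the assembly factors of the chain, of which 33 of 38 listed had a probe, differed less than the subunits they serve. The median was -0.57 for the day 46 culture, -0.26 for the day 42 culture and -1.07 for lung over adult stomach, with 11 of 33, 9 of 33 and 17 of 32 at least 2-fold lower. The shares over all genes were 22.1%, 22.6% and 21.8%, so the count for the day 42 culture was near that of all genes. For adult over E9.5 stomach the median was 0.09, with 3 higher and 2 lower, against 29.8% and 27.3% of all genes. Somatic cytochrome c itself, Cycs, was at 4.06 in day 46 culture, 4.39 in day 42 culture, 5.10 in esophagus, 3.06 in lung, 6.57 in intestine, 5.91 in adult stomach and 5.15 in E9.5 stomach.

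The regulators of mitochondrial biogenesis (14 genes) showed no single direction for adult over E9.5 stomach, with 6 at least 2-fold higher, 5 at least 2-fold lower and a median of 0.00. Of all genes, 29.8% were higher and 27.3% lower there. Over adult stomach the median was -0.87 in the day 46 culture, with 6 lower and 2 higher, -0.40 in the day 42 culture, with 5 lower and 1 higher, and -0.95 in lung, with 7 lower and none higher. The shares of all genes were 22.1%, 22.6% and 21.8% lower and 19.4%, 20.2% and 18% higher in that order. The coactivator Ppargc1b was at -0.59 in day 46 culture, 0.26 in day 42 culture, 1.92 in esophagus, -0.45 in lung, 1.61 in intestine, 2.79 in adult stomach and -1.03 in E9.5 stomach. Nrf1, whose motif is marked in the promoters above, was at -1.76 in day 46 culture, -2.14 in day 42 culture, -2.56 in esophagus, -2.01 in lung, -2.13 in intestine, -2.80 in adult stomach and -0.49 in E9.5 stomach. The Nrf1 level was lowest in adult stomach, with esophagus close to it, and its part in the members' levels was not tested.

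Members with and without a promoter motif were set side by side, leaving out the restricted isoforms, and no test was made. For the day 42 culture over adult stomach, the median log2 difference was -1.45 for the 16 members with an NRF1 match and -1.39 for the 48 without, -1.38 for the 17 with a GABP match and -1.40 for the 47 without, and -1.45 for the 8 with an ERR match and -1.39 for the 56 without. The 10 members with a YY1 match had a median of -1.07, against -1.42 for the 54 without. For the day 46 culture over adult stomach the widest gap was again that of YY1, with -1.58 for members with and -2.04 for members without a match. For day 46 over day 42 it was that of GABP, with -0.40 with and -0.69 without a match. For lung over adult stomach the medians were -1.97 with and -2.10 without an NRF1 match and -1.86 with and -2.10 without a YY1 match. Most members had the same sign in each of these comparisons, so medians of equal sign with and without a motif say little about the motifs. In intestine over adult stomach, 29 members had a positive and 52 a negative difference. The GABP medians there were 0.01 with and -0.18 without a match.

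Where a member had several probes, they mostly gave the same direction. For the 16 such members, all probes had the same sign in 16 for lung, 12 for esophagus and 12 for intestine over adult stomach. The number was 15 for either culture over adult stomach, for the day 42 culture over E9.5 stomach and for adult over E9.5 stomach, and 14 for day 46 over day 42. Signs disagreed for Sdha and Ndufa12 in day 46 over day 42 and in esophagus over stomach, and for Ndufa7 in the day 42 culture over both stomachs and in intestine over stomach. They also disagreed for Ndufv3 in the day 46 culture over adult stomach, for Atp5g2 in adult over E9.5 stomach, for Atp5b and Atp5g2 in esophagus over stomach and for Ndufa12, Ndufv3 and Atp5a1 in intestine over stomach. These members' differences in those comparisons are uncertain.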

How the data were processed

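Total RNA of 7 mouse samples was hybridised to 1 Agilent one-colour array each, so every group held 1 sample and no test or error between samples was possible. Per the file headers, the scanner software Agilent Feature Extraction (10.7.3.1 for both cultures, 10.5.1.1 for the other 5 arrays, and 10.5 per the submitters' processing notes) wrote a background-corrected intensity per spot and marked controls, outlier spots and spots clear of background. Besides these, the authors deposited log2 values scaled to the 75th percentile, whose column medians lay between -3.43 and -2.68 and whose 41265 values per sample correlated at 0.999 or above with those used here. The RNA kit used for each sample is not given in the sources used here. The number of further columns of other samples was 0.

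Of 45018 spots per array, 43379 were not controls, and 40 to 728 outlier spots were left out. Spots of a probe were averaged as log2 intensity, from which the 75th percentile of the array was taken. Names came from RefSeq's table by accession for 24375 of 41174 probes and by symbol for 57, and the 16742 unnamed probes were not used. Each gene was represented by its brightest probe on average. A gene was well above background where a share of 0.5 or more of its spots carried that mark. A gene dim on 1 array was set there to the lowest signal clear of background on it, or to its own signal if higher, and its fold is then a bound. Where the bound left no difference the value was 0, which contributes to the all-gene medians of 0, and genes dim on both arrays were left out. A call was a 2-fold difference. The SD between probes came from genes with several probes.

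The members and lists were chosen with earlier results of these data known. Named were the 3 highest and 3 lowest members of each comparison, all restricted isoforms, any other member as an example, and for other lists genes among the 2 largest differences of a comparison. Alternatives were median centring, quantile normalization, the deposited log2 table, normexp background correction (limma 3.58.1, R 4.3.3, offset 50), no filter, a stricter filter, the mean over probes and a 1.5-fold threshold. The counting was tested on simulated data. Python 3.11.15 was used, and promoters were matched by symbol.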

Additional observations from a re-analysis of the deposited data

How the results depend on the processing

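No paired analysis was possible because each group held 1 array, and for the same reason the slide could not be fitted as a block and was not run. No result and no named member was counted as reversed under the alternatives computed, but small differences could change sign. Median centring made Sdhc (0.38) and Ndufv2 (0.24) negative for day 46 over day 42. It made Cox7a1 (-0.07) and Cox4i1 (-0.06) positive for intestine over adult stomach. With the deposited log2 table all 38 medians, counts and ranges stayed close to the reported ones. That table is scaled to the same percentile and holds nearly the same values, so this closeness is no separate support. Median centring moved the all-gene median by -0.39 for day 46 over day 42, 0.43 for day 42 over adult stomach, -0.57 for adult over E9.5 stomach and between -0.18 and 0.12 elsewhere, and the counts moved with it: for day 46 over day 42, 0 members were at least 2-fold higher and 40 lower, for day 42 over adult stomach 35 were lower, for adult over E9.5 stomach 15 were higher and 1 lower, for esophagus 10 were lower and for intestine 2. Under quantile normalization the members' median relative to all genes was -0.32 for day 46 over day 42 (0 higher, 1 lower), -1.44 for day 46 over adult stomach, -0.22 for esophagus (3 lower) and -1.23 for lung, 1 member was lower in adult than in E9.5 stomach, and the range of the median level over the arrays was 1.205 for complex I, 2.30 for II, 1.71 for III, 2.21 for IV and 1.35 for V. With normexp the relative median was -0.47 for day 46 over day 42 (0 higher), -1.08 for day 42 and -1.55 for day 46 over adult stomach, -0.12 for day 42 and 0.83 for adult stomach over E9.5 stomach, -0.16 for esophagus and -1.72 for lung. Cox6a2 minus Cox6a1 was then 8.86 for day 42 and 12.5 for esophagus over adult stomach, Cox8b minus Cox8a 10.35 for esophagus, and the ranges were 1.56 for complex I, 2.59 for II, 2.29 for IV and 1.77 for V. Without a filter 2 members were higher at day 46 than at day 42, and for adult over E9.5 stomach the relative median was 0.95 with 1 member lower. With genes above background on both arrays alone the relative median was -0.48 for day 46 over day 42, and with the mean over probes the range of complex I was 1.94. At 1.5-fold, 43 members were lower at day 46 than at day 42, 12 were higher and 25 lower at day 42 than at E9.5, 1 was lower in adult than in E9.5 stomach, 32 were lower in esophagus, and 7 were higher and 8 lower in intestine. Of 112 values of named members, 16 moved by more than the SD between probes under normexp, 14 under quantile normalization, 6 without a filter, 1 with the mean over probes and none under median centring. The small shift between the cultures therefore depends on the scaling in its count of calls, while every alternative kept its sign. Dim signals limit Cox4i2, Cox7b2 and Cox8c.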
